A study of Mus musculus with 4 samples.

Results

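Cones are the photoreceptors of daylight and color vision, and the 10 genes described here encode the proteins with which a mouse cone turns light into a change of membrane current. They were taken by gene symbol (Opn1sw, Opn1mw, Gnat2, Gnb3, Gngt2, Pde6c, Pde6h, Cnga3, Cngb3 and Arr3), and all 10 were found among 21828 genes, each on 1 line of the expression tables. The rule itself uses no measured value, but the choice was made with earlier results of these data known. RNA was sequenced from neonatal retinas of mice that carry a transgene in which the Hes1 promoter drives a destabilized enhanced green fluorescent protein (EGFP). Hes1 is a Notch effector that keeps retinal progenitors undifferentiated and is later expressed in Müller glia, the radial glia of the retina. The EGFP-positive cells (pHes1_EPCs) and the EGFP-negative cells (pHes1_ENCs) were separated with a cell sorter at postnatal day 1 (P1) and postnatal day 4 (P4), which gave 4 groups. The strain label is FVB/N in all groups, while the study's methods name ICR mice beside the transgenic line, so the background of the sorted animals is in doubt. No treatment was given, and the transgene is shared by both fractions, so a cell is counted as pHes1_ENC because it was dim at the time of the sort and not because it lacked the transgene. Each group has 1 library. No test between groups is therefore possible, and every difference below is a description of these libraries. The number of animals behind a library is not given in the sources used here.

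In a cone, light is absorbed by an opsin, which activates the G protein transducin. Transducin relieves the inhibition of a phosphodiesterase, cGMP is broken down, and cyclic nucleotide-gated channels in the outer segment close. Arrestin binds the activated opsin and ends the response. Rods use the same sequence of steps with their own set of paralogs. Mouse cones are born before birth, whereas most rods are born around and after birth, and mouse cones express a short-wavelength opsin, a medium-wavelength opsin or both in a dorsoventral gradient. The medium-wavelength opsin is known to appear later than the short-wavelength opsin in the mouse.

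The upstream sequences of the opsins, of Gnat2 and of Arr3 are given before the values. A relation between these sequences and the levels was not tested. RefSeq-based windows of 250 bases upstream of the annotated start (build GRCm38.p6) were matched by symbol to 6 of the 10 genes (Opn1sw, Opn1mw, Gnat2, Pde6h, Cnga3 with 2 starts, and Arr3). Those of Gngt2, Gnb3, Pde6c and Cngb3 were not used here. The sequences below are written 5′ to 3′ on the strand of the gene, from chr6:29380514-29380763 (minus strand) for Opn1sw, chrX:74127216-74127465 (plus strand) for Opn1mw, chr3:108092816-108093065 (plus strand) for Gnat2 and chrX:100605247-100605496 (plus strand) for Arr3. The matched windows of Pde6h and of the 2 Cnga3 starts hold no TAATCN and are not printed. Capitals mark TAATCN on either strand, the core recognized by homeodomain proteins of the Otx2 and Crx type, which are photoreceptor transcription factors.
Opn1sw: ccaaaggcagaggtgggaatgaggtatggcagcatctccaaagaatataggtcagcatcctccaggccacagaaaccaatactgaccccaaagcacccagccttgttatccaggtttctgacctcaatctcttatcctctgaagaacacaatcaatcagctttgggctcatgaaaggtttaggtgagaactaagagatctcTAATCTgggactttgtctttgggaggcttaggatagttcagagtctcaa
Opn1mw: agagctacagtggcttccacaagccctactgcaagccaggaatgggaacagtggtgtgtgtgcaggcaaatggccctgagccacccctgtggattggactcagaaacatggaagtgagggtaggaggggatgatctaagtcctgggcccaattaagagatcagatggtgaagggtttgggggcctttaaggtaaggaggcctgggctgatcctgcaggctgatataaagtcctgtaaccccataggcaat
Gnat2: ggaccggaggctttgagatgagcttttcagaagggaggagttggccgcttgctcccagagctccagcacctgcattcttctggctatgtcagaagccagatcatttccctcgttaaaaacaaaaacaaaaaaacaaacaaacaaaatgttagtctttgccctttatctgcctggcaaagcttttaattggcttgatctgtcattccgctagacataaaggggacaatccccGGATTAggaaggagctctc
Arr3: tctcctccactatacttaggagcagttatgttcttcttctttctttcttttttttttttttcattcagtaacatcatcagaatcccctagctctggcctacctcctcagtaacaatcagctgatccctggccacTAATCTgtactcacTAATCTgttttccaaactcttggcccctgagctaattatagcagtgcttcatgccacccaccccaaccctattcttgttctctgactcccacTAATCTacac

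The TAATCN core was present 3 times upstream of Arr3, with its leftmost base at -116, -102 and -10 relative to the start. It was present 1 time upstream of Opn1sw, at -49, and 1 time upstream of Gnat2, at -19, where it reads TAATCC on the opposite strand. No match was found in the windows of Opn1mw, Pde6h or Cnga3. Over all 32851 windows of the same length, 19.8% hold at least 1 TAATCN and 3.27% hold at least 2, and the longer TAATCC is in 6.25%, a subset of the first. The nuclear receptor motif AGGTCA was found on either strand upstream of Opn1sw, at -202 and -132, and in 14.0% of all windows, with 2 or more in 1.36%. The motif CAGCTG, which basic helix-loop-helix proteins can bind and which reads the same on both strands, was found upstream of Arr3 at -134 and of 1 of the 2 Cnga3 starts at -169, and in 13.0% of all windows. The motifs were chosen after these sequences had been read, and a match describes letters only.

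In the build of the expression tables (NCBI37/mm9), Opn1sw lies on chromosome 6 from 29326671 to 29330513, Gnb3 on chromosome 6 from 124784258 to 124790293 and Pde6h on chromosome 6 from 136903044 to 136912004. Opn1mw lies on chromosome X from 71372805 to 71396094 and Arr3 on chromosome X from 97800836 to 97813832. Gnat2 is on chromosome 3 from 107895986 to 107904203, Gngt2 on chromosome 11 from 95703609 to 95707045, Pde6c on chromosome 19 from 38207271 to 38258441, Cnga3 on chromosome 1 from 37276106 to 37320229 and Cngb3 on chromosome 4 from 19207997 to 19437770. They range from 3 exons in Gngt2 to 22 exons in Pde6c. Opn1sw and Gngt2 share bases with a gene on the opposite strand, Calu and Abi3, and the library preparation did not mark strand, so reads from the shared bases cannot be assigned. The Opn1sw line of the tables shares 5 bases with the line of Calu, and that of Gngt2 shares 182 bases with the line of Abi3. Calu, a calcium-binding protein of the secretory pathway, had an FPKM of 50.2 at P1 and 50.4 at P4 in the pHes1_ENCs, and 84.6 at P1 and 80.2 at P4 in the pHes1_EPCs, higher in the pHes1_EPCs at both ages. Abi3 had an FPKM between 0.132 and 0.883 in all libraries. Sequences of 36 bases, the read length, were taken from the longest annotated coding transcript of each gene, which can differ from the gene model behind the FPKM. They occurred at more than 1 place in the genome for 6.76% of the Pde6h transcript, 3.73% of Cnga3, 3.47% of Gnat2 and 0.126% of Opn1sw, and for 0% of the other 6. Sequences with no match in the genome, such as 433 of 1657 in Arr3 and 692 of 2924 in Pde6c, are included in the totals behind these shares.

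Levels are given as FPKM, fragments per kilobase of transcript relative to the mapped fragments of the library, which is divided by length and can be set side by side between genes. The range in parentheses is the 95% interval that the quantification software gave. It covers counting error only, and not the variation between animals, litters or sorts. Markers of the fractions are given first. The sort itself used the Hes1 promoter, and the marker list was chosen with earlier results known. These markers are therefore no independent check of identity. All 9 markers of progenitors and Müller glia examined (among them Hes1, Hes5, Sox2 and Slc1a3) were more than 2-fold higher in the pHes1_EPCs at both ages. Over all genes 6.1% at P1 and 9.85% at P4 were called higher. The summed FPKM of the 9 markers was 623 at P1 and 223 at P4 in the pHes1_ENCs, and 2835 at P1 and 2311 at P4 in the pHes1_EPCs. The rod transcription factors Nrl and Nr2e3 summed to 312, 1859, 17.5 and 350 in the same order, so signal of the rod lineage was present in the pHes1_EPCs as well and was higher there at P4. Hemoglobin and other red cell genes summed to 137, 334, 0.595 and 5.83. In bulk RNA from sorted cells, fewer cells of a type and less RNA per cell cannot be told apart.

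All 10 cone genes had a lower FPKM in the pHes1_EPCs than in the pHes1_ENCs at both ages, although for Opn1mw and Pde6h the values rest on very few reads. For the 9 genes above 0 in both fractions, the FPKM in the pHes1_EPCs was 6.21% to 26.2% of that in the pHes1_ENCs at P1, with a median of 15.4%, and 19.9% to 98.0% at P4, with a median of 34.3%. The ratio was nearer to 1 at P4 for 9 of the 10 genes, the exception being Opn1mw, for which no ratio can be given. The share of all genes for which this held is not given here. In each pHes1_ENC library 8 of the 10 genes had an FPKM of 1 or more, against 4 in P1 pHes1_EPC and 6 in P4 pHes1_EPC. The summed FPKM of the 10 genes was 454 at P1 and 1124 at P4 in the pHes1_ENCs, and 44.7 at P1 and 319 at P4 in the pHes1_EPCs, and Gngt2 and Gnb3 together made up 79.3%, 90.4%, 66.5% and 88.0% of it in that order.

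**Figure D1:**
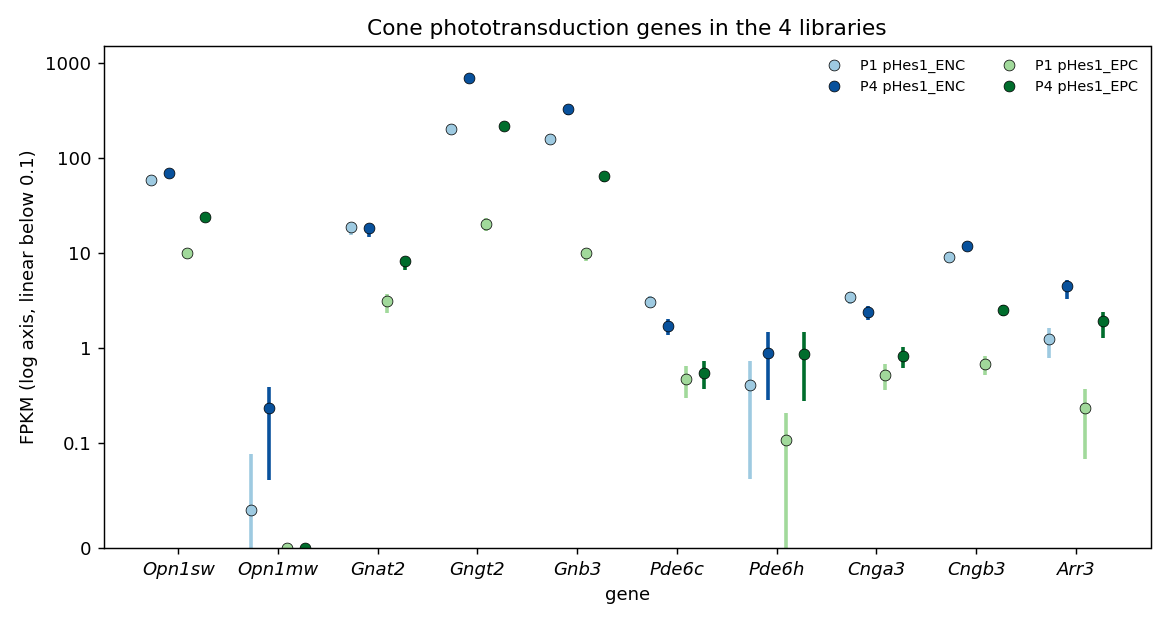
FPKM (log axis, linear below 0.1) of the 10 cone phototransduction genes in the 4 libraries, with points for the FPKM and vertical lines for the 95% interval of counting error. The green pHes1_EPC points lie below the blue pHes1_ENC points of the same age, by the least for Pde6h at P4, and Gngt2 reaches the top value, 692, in P4 pHes1_ENC. Opn1mw is listed at 0 in both pHes1_EPC libraries and has no interval there, and Gnb3 points can lie above their own interval.

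The opsins differed most from each other. Opn1sw, the short-wavelength opsin, had an FPKM of 58.5 (56.3 to 61.3) at P1 and of 68.6 (65.8 to 71.8) at P4 in the pHes1_ENCs, and 9.88 (8.98 to 10.8) at P1 and 23.5 (22.0 to 25.1) at P4 in the pHes1_EPCs. Both pHes1_ENC libraries were high, both pHes1_EPC libraries were low, and none of the 4 intervals overlapped. Opn1sw was 5.92-fold (5.22 to 6.82) higher in the pHes1_ENCs at P1 and 2.91-fold (2.62 to 3.26) higher at P4, where the ranges combine the limits of both intervals. Opn1mw, the medium-wavelength opsin, had an FPKM of 0.0358 (0 to 0.0895) in P1 pHes1_ENC and 0.232 (0.0644 to 0.386) in P4 pHes1_ENC, and it was listed at 0 in both pHes1_EPC libraries. The width of its interval in P4 pHes1_ENC corresponds to 7.84 reads, and the P1 and P4 intervals overlapped, so a change with age was not detectable at this depth. In P4 pHes1_ENC the FPKM of Opn1sw was 296-fold (170 to 1114) that of Opn1mw.

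The 3 transducin subunits were unequal in level. Gnat2, the cone alpha subunit that binds GTP, had an FPKM of 18.5 (15.3 to 18.8) at P1 and of 18.0 (14.8 to 18.1) at P4 in the pHes1_ENCs, and 3.10 (2.32 to 3.65) at P1 and 8.24 (6.55 to 8.75) at P4 in the pHes1_EPCs. The pHes1_ENC libraries of both ages overlapped, and both pHes1_EPC libraries lay below them. Gnat2 was thus 5.97-fold (4.18 to 8.11) higher in the pHes1_ENCs at P1 and 2.18-fold (1.69 to 2.76) higher at P4. Gnb3, the cone beta subunit, which is also known from ON bipolar cells, had an FPKM of 158.7 at P1 and 324 at P4 in the pHes1_ENCs, and 9.86 at P1 and 64.6 at P4 in the pHes1_EPCs. In 3 of the 4 libraries, all but P1 pHes1_EPC, the FPKM listed for Gnb3 lies above its own interval, so its intervals describe its precision poorly. Gnb3 had the widest gap between fractions of the 10 genes, 16.1-fold at P1 and 5.02-fold at P4. Of the bipolar cell markers, Grm6 and Vsx1 had an FPKM of at most 0.642 in all 4 libraries. Trpm1, the channel of ON bipolar cells, was at 0.0143 in P4 pHes1_ENC and 1.85 in P4 pHes1_EPC, opposite to Gnb3. Prkca was 1.76-fold higher in the pHes1_EPCs at P1, but at 3.94 in P4 pHes1_ENC and 3.68 in P4 pHes1_EPC, with overlapping intervals. Cabp5 was lower in the pHes1_EPCs at both ages, like Gnb3, with 2.52 against 0.449 at P1 and 4.69 against 1.92 at P4. Of the 8 markers with Otx2, 5 were lower in the pHes1_EPCs at P1 and 3 higher. At P4, 7 were lower and 1 higher. The part of bipolar cells in the values of Gnb3 was not tested. The 7 markers other than Otx2 summed to 10.7 and 16.5 in the pHes1_ENCs at P1 and P4 and to 7.24 and 12.2 in the pHes1_EPCs.

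Gngt2, the cone gamma subunit, had the highest FPKM of the 10 genes in every library: 201.7 (190.6 to 213.6) at P1 and 692 (675 to 720) at P4 in the pHes1_ENCs, and 19.9 (16.9 to 22.9) at P1 and 216 (206 to 229) at P4 in the pHes1_EPCs. Its P4 pHes1_EPC level was as high as its P1 pHes1_ENC level, with overlapping intervals, which held for no other member with an FPKM above 10. It was 10.1-fold (8.31 to 12.7) higher in the pHes1_ENCs at P1 and 3.20-fold (2.95 to 3.49) higher at P4. Per length, Gngt2 exceeded Gnat2 by 10.9-fold (10.1 to 14.0) in P1 pHes1_ENC and by 38.5-fold (37.3 to 48.8) in P4 pHes1_ENC. The subunits of a transducin are present in equal number. In the pHes1_EPCs the same ratio was 6.41 (4.62 to 9.89) at P1 and 26.3 (23.6 to 34.9) at P4. By contrast the ratio of Opn1sw to Gnat2 lay between 2.86 and 3.81 in all 4 libraries, with overlapping ranges.

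The phosphodiesterase genes were low. Pde6c, the catalytic subunit of cones, had an FPKM of 3.05 (2.63 to 3.47) at P1 and of 1.68 (1.37 to 2.01) at P4 in the pHes1_ENCs, and 0.468 (0.298 to 0.638) at P1 and 0.546 (0.364 to 0.727) at P4 in the pHes1_EPCs. It was highest in P1 pHes1_ENC, and the pHes1_EPC libraries of the 2 ages overlapped. Pde6h, the inhibitory gamma subunit of the cone enzyme, had an FPKM of 0.409 (0.0652 to 0.717) at P1 and of 0.884 (0.282 to 1.48) at P4 in the pHes1_ENCs, and 0.107 (0 to 0.205) at P1 and 0.866 (0.276 to 1.45) at P4 in the pHes1_EPCs. The fractions overlapped at both ages, and the intervals at P4 correspond to 8.65 reads in each library, so no difference between fractions was detectable for Pde6h.

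The channel subunits and arrestin had low to moderate levels. Cnga3, the principal subunit of the cone cyclic nucleotide-gated channel, had an FPKM of 3.38 (2.89 to 3.87) at P1 and of 2.37 (1.97 to 2.75) at P4 in the pHes1_ENCs, and 0.520 (0.360 to 0.676) at P1 and 0.824 (0.616 to 1.02) at P4 in the pHes1_EPCs. Its modulatory partner Cngb3 had an FPKM of 8.95 (8.15 to 9.56) at P1 and of 11.8 (10.8 to 12.6) at P4 in the pHes1_ENCs, and 0.668 (0.518 to 0.818) at P1 and 2.50 (2.16 to 2.82) at P4 in the pHes1_EPCs. For Cngb3 all 4 intervals were apart. The ratio of Cngb3 to Cnga3 was 2.65 (2.11 to 3.31) in P1 pHes1_ENC and 5.0 (3.94 to 6.41) in P4 pHes1_ENC, so the modulatory subunit had the higher level at both ages. In the pHes1_EPCs that ratio was 1.28 (0.767 to 2.27) at P1 and 3.03 (2.11 to 4.58) at P4. Arr3, the cone arrestin that quenches activated opsin, had an FPKM of 1.23 (0.776 to 1.61) at P1 and of 4.45 (3.27 to 5.20) at P4 in the pHes1_ENCs, and 0.231 (0.0842 to 0.365) at P1 and 1.90 (1.27 to 2.35) at P4 in the pHes1_EPCs. Its P1 pHes1_ENC and P4 pHes1_EPC intervals overlapped, and the other pairs of libraries were apart.

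The order of levels in P1 pHes1_ENC was Gngt2, Gnb3, Opn1sw, Gnat2, Cngb3, Cnga3, Pde6c, Arr3, Pde6h and Opn1mw, and neighbours overlapped only for Cnga3 with Pde6c and for Pde6h with Opn1mw. In P4 pHes1_ENC Arr3 stood above Cnga3 and the rest of the order was the same, with overlap between Cnga3 and Pde6c, Pde6c and Pde6h, and Pde6h and Opn1mw. Gngt2, Gnb3, Opn1sw, Gnat2 and Cngb3 kept this order in P4 pHes1_EPC too. In P1 pHes1_EPC Opn1sw and Gnb3 could not be told apart, and below Gnat2 the intervals of all neighbours that have one overlapped.

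Differences are given next as log2(FPKM + 1), on which a gene is called more than 2-fold higher or lower when the difference exceeds 1 in size. The added 1 understates the change of genes with a low FPKM. At P1, 7 of the 10 genes were more than 2-fold lower in the pHes1_EPCs, where 6.79% of all genes and 11.5% of the 12941 genes that reached an FPKM of 1 in any library were called lower, and 6.1% of all genes were called higher. The 7 were Gnb3 (difference of -3.88), Gngt2 (-3.28), Cngb3 (-2.58), Opn1sw (-2.45), Gnat2 (-2.25), Cnga3 (-1.53) and Pde6c (-1.46). At P4, 5 of the 10 genes were called lower, Gnb3 (-2.31), Cngb3 (-1.88), Gngt2 (-1.67), Opn1sw (-1.50) and Gnat2 (-1.04), where 5.42% of all genes and 9.15% of the genes that reached an FPKM of 1 were called lower, and 9.85% of all genes were called higher. These 5 were called at both ages. Lower genes were 35.5% of all genes called at P4, and 46.9% to 53.4% when the libraries were rescaled in 3 other ways, under which the 10 cone genes stayed below 0. The median difference of the 10 genes was -1.89 at P1 and -0.98 at P4, beside medians of 0 over all genes and of 0.02 and 0.15 over the genes that reached an FPKM of 1. With an added 0.1 in place of 1, 9 of the 10 genes passed at P4, so this count rests on the low values of Cnga3, Pde6c, Arr3 and Opn1mw. With the added 0.1, 8.99% of all genes were called lower at P4. The intervals of the fractions were apart, with the pHes1_EPCs lower, for 8 genes at both ages, all but Opn1mw, which has none in the pHes1_EPCs, and Pde6h. By this rule 28.4% of the genes above 0 in both fractions were lower at P1 and 25% at P4.

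**Figure D2:**
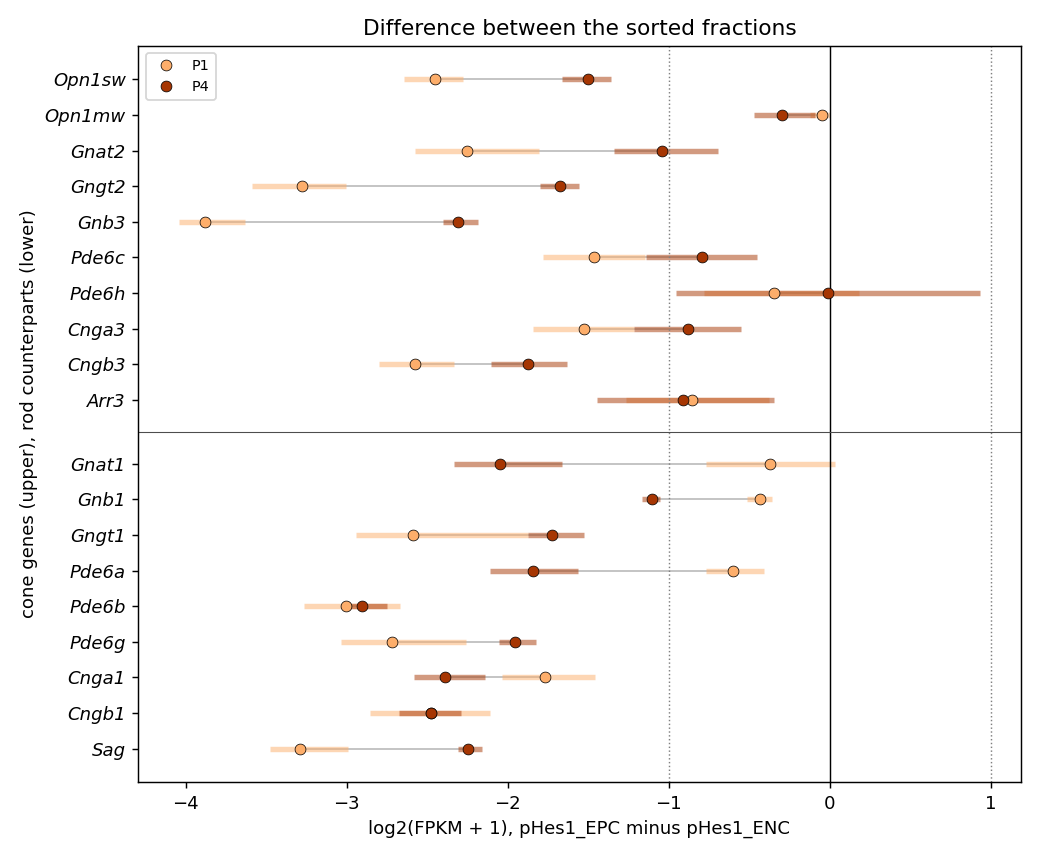
Difference between the fractions on the log2(FPKM + 1) scale (pHes1_EPC minus pHes1_ENC, horizontal axis) at P1 and P4 for the 10 cone genes and 9 rod counterparts, with dotted lines at a 2-fold difference. Thick bars run between the differences that the ends of both 95% intervals allow and cover counting error only. All points lie below 0, from -3.88 for Gnb3 at P1 to -0.01 for Pde6h at P4, and the widest bar is that of Pde6h at P4.

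The comparison of P4 with P1 within a fraction asks how the same genes differed over 3 days of retinal maturation, and it uses the same 4 libraries as the comparison of fractions. In the pHes1_ENCs the 10 genes differed between the ages in both directions. More than 2-fold higher at P4 were 3 genes, Gngt2 (difference of 1.77), Arr3 (1.29) and Gnb3 (1.03), where 2.77% of all genes and 4.67% of those that reached an FPKM of 1 were called higher. Opn1sw (0.23), Gnat2 (-0.04), Cngb3 (0.37) and Cnga3 (-0.38) had an FPKM above 1 and a difference of less than 0.5 in size. Pde6c (-0.60) and Cnga3 were lower at P4, at 0.551-fold (0.393 to 0.764) and 0.700-fold (0.508 to 0.951) of their P1 level, with intervals apart. Including these, intervals were apart for 7 genes, of which 5 were higher at P4 (Opn1sw, Gngt2, Gnb3, Cngb3 and Arr3), where this rule gave 22.6% of the genes above 0 at both ages as higher and 27.4% as lower. Rescaled to the same total or by quantiles, the difference of Gnb3 was 0.96 or 0.73, under the 2-fold line. The median difference was 0.31, beside 0 over all genes and -0.01 over the genes that reached an FPKM of 1.

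In the pHes1_EPCs 6 of the 10 genes were more than 2-fold higher at P4, Gngt2 (difference of 3.38), Gnb3 (2.59), Arr3 (1.24), Opn1sw (1.17), Gnat2 (1.17) and Cngb3 (1.07), where 4.17% of all genes and 7.04% of those that reached an FPKM of 1 were called higher. Cngb3 was under the 2-fold line when the libraries were rescaled by median of ratios (0.95) or quantiles (0.90), as was Opn1sw with the same total (0.94). Gngt2 was 10.9-fold (9.01 to 13.6) and Gnb3 6.55-fold as high as at P1, and Arr3 8.22-fold (3.50 to 27.9). Opn1sw was 2.38-fold (2.04 to 2.79), Gnat2 2.66-fold (1.79 to 3.77) and Cngb3 3.73-fold (2.64 to 5.44) as high. Pde6c (0.07, and below 0 when the libraries were rescaled to the same total) and Cnga3 (0.26) had overlapping intervals at the 2 ages, and Opn1mw was listed at 0 at both. Pde6h (0.75) was under 1 FPKM at both ages and was 8.08-fold as high at P4, with intervals apart (0 to 0.205 against 0.276 to 1.45), and it passed 2-fold with an added 0.1. Intervals were apart for 7 genes, all higher at P4, as they were for 36.1% of the genes above 0 at both ages. The median difference was 1.12, beside 0 over all genes and 0.17 over the genes that reached an FPKM of 1. For 9 of the 10 genes the ratio of P4 to P1 was larger in the pHes1_EPCs than in the pHes1_ENCs, Opn1mw having no ratio. This follows by arithmetic from the ratio between fractions being nearer to 1 at P4 for the same genes, and is not a separate result. Nrl and Nr2e3 were 21.7-fold and 18.4-fold as high at P4 as at P1 in the pHes1_EPCs and 5.32-fold and 6.64-fold in the pHes1_ENCs, and the part of rod precursors in the values of Gngt2 and Gnb3 was not tested.

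**Figure D3:**
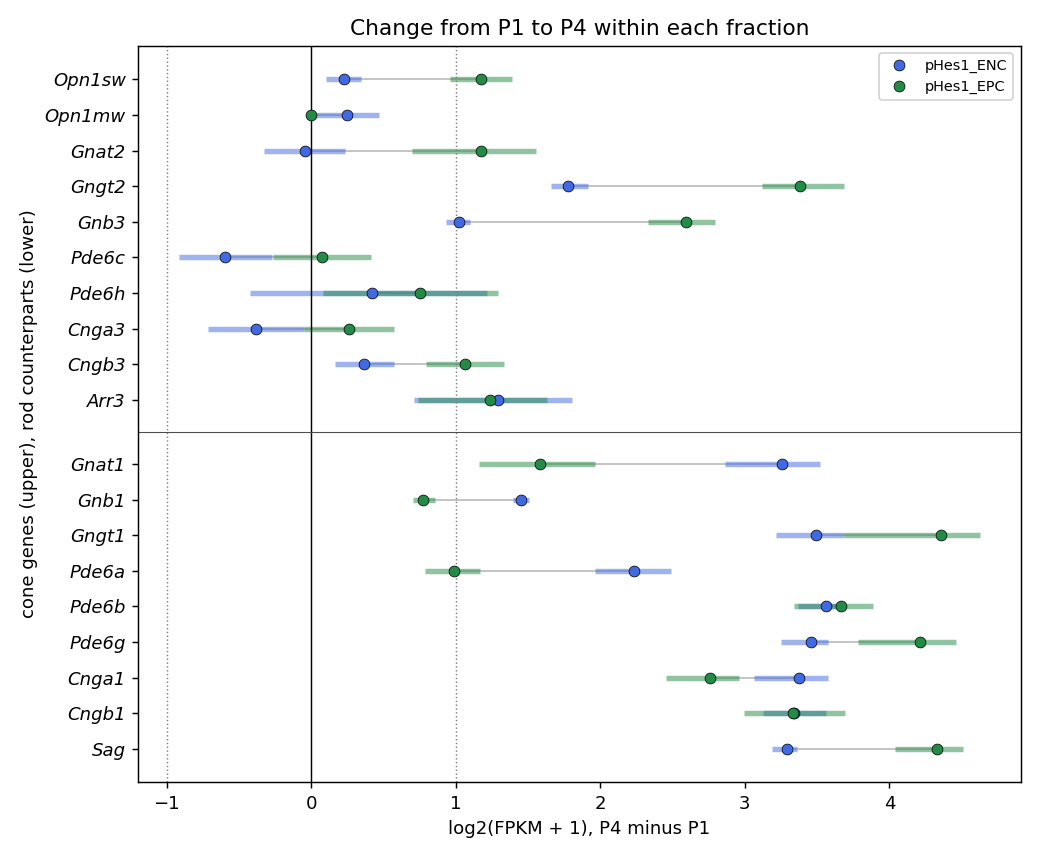
Difference between the ages on the log2(FPKM + 1) scale (P4 minus P1, horizontal axis) within the pHes1_ENCs (blue) and the pHes1_EPCs (green) for the 10 cone genes and 9 rod counterparts, with thick bars for the differences that the ends of both 95% intervals allow. The blue cone points run from -0.60 for Pde6c to 1.77 for Gngt2, while the blue rod points run from 1.45 for Gnb1 to 3.56 for Pde6b.

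The rod paralogs of the same steps separated from the cone genes with age. All 9 rod counterparts (Gnat1, Gnb1, Gngt1, Pde6a, Pde6b, Pde6g, Cnga1, Cngb1 and Sag) were more than 2-fold higher at P4 in the pHes1_ENCs and 7 were in the pHes1_EPCs. Over all genes 2.77% and 4.17% were called higher. The median ratio of P4 to P1 of the rod counterparts in the pHes1_ENCs was 11.3 (from 2.74 to 17.8), beside 1.68 (from 0.551 to 6.48) for the 10 cone genes. Gnat1, the rod transducin alpha subunit, had an FPKM of 1.03 at P1 and 18.4 at P4 in the pHes1_ENCs, and 0.570 at P1 and 3.71 at P4 in the pHes1_EPCs. In the pHes1_ENCs the level of Gnat2 was therefore 17.9 times (11.6 to 25.3) that of Gnat1 at P1 and 0.975 times (0.778 to 1.14) at P4. The level of Cnga3 was 1.16 times that of Cnga1 at P1 and 0.0595 times at P4, and that of Cngb3 was 1.15 times that of Cngb1 at P1 and 0.135 times at P4. Pde6c against the 2 rod catalytic subunits was at 5.32-fold of Pde6a and 0.232-fold of Pde6b at P1, and at 0.262-fold and 0.0101-fold at P4.

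Gngt2 was the only cone gene still above its rod counterpart in the P4 pHes1_ENCs, at 12.9-fold of Gngt1 at P1 and 3.70-fold at P4. Both ratios lie below their own ranges (13.1 to 19.0 and 4.32 to 5.02), because the FPKM of Gngt1 lies above its interval. Gnb3 stood at 1.02-fold of Gnb1 at P1 and 0.763-fold at P4, where Gnb1 is the beta subunit of rod transducin and is also expressed widely outside photoreceptors. The inhibitory subunit and arrestin of cones were far below those of rods at both ages, Pde6h at 0.0083-fold of Pde6g at P1 and 0.0016-fold at P4, and Arr3 at 0.0147-fold of Sag at P1 and 0.0054-fold at P4. Of 9 pairs, the cone gene was the higher in 6 at P1 and 1 at P4 in the pHes1_ENCs, and 5 at P1 and 2 at P4 in the pHes1_EPCs. Counting only pairs whose whole range from the intervals lay above 1, these were 3, 1, 4 and 2, since in P1 pHes1_ENC Cnga3 over Cnga1 (0.853 to 1.61) and Cngb3 over Cngb1 (0.944 to 1.39) include 1 and the range of Gnb3 over Gnb1 (0.864 to 0.972) lies below it. The ratio of cone to rod gene was lower at P4 than at P1 in 9 of 9 pairs in the pHes1_ENCs and in 8 of 9 in the pHes1_EPCs, with ranges apart in 8 and 6. The exception was Gnb3 over Gnb1 in the pHes1_EPCs, at 0.0861-fold at P1 and 0.328-fold at P4. In P4 pHes1_ENC the FPKM of Gngt1, Pde6b, Pde6g, Cnga1 and Sag also lay above their own intervals, so ranges that use them describe the precision poorly.

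**Figure D4:**
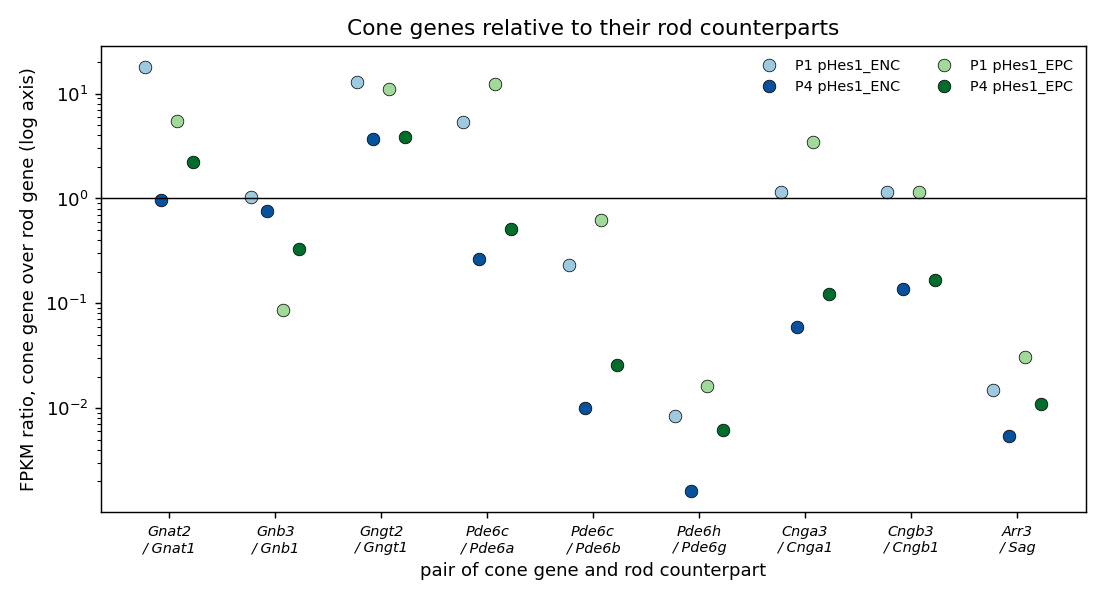
FPKM ratio of each cone gene to its rod counterpart (log axis) in the 4 libraries, with 1 point for each library and a horizontal line at equal levels. In 8 of 9 pairs both P4 points lie below the P1 points of the same fraction, and Gngt2 over Gngt1 stays above the line in all 4 libraries, from 3.70 to 12.9.

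Between fractions, 6 of the 9 rod counterparts were more than 2-fold lower in the pHes1_EPCs at P1 and 9 at P4, with median differences of -2.47 and -2.05, beside 7 and 5 of the cone genes. Over all genes 6.79% at P1 and 5.42% at P4 were called lower. On this scale 8 of the 10 cone genes differed more at P1, all but Arr3 and Opn1mw. Of the rod counterparts, Gngt1, Pde6b, Pde6g and Sag differed more at P1 and Gnat1, Gnb1, Pde6a, Cnga1 and Cngb1 more at P4, Cngb1 only slightly (-2.47 and -2.48). As ratios without the added 1, the fractions were nearer to each other at P4 for 9 of the 10 cone genes and 7 of the 9 rod counterparts, all but Gnat1 and Gnb1.

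The genes that shut off the response and restore cGMP are largely shared by rods and cones. Of 14 such genes, 9 were more than 2-fold lower in the pHes1_EPCs at P1 and 11 at P4, where 6.79% and 5.42% of all genes were called lower. More than 2-fold higher at P4 were 12 in the pHes1_ENCs and 7 in the pHes1_EPCs, where 2.77% and 4.17% of all genes were called higher. Rgs9, which speeds GTP hydrolysis by transducin, had an FPKM of 22.5 at P1 and 59.5 at P4 in the pHes1_ENCs, and 4.20 at P1 and 8.64 at P4 in the pHes1_EPCs. Pdc (phosducin, which binds the transducin beta and gamma subunits) had an FPKM of 209, 1623, 16.7 and 310 in the same order, and Guca1a (an activator of guanylate cyclase) had 5.10, 21.1, 1.14 and 8.84. Slc24a2, the sodium, calcium and potassium exchanger of cones, was the only gene of this list with a higher FPKM in the pHes1_EPCs at both ages, with 0.826, 0.305, 1.32 and 1.12, and it was called in none of the 4 comparisons.

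Of 11 transcription factors of the cone lineage, 8 were more than 2-fold lower in the pHes1_EPCs at P1 and 7 were at P4, while any lower level was seen for 10 and 8. Over all genes 6.79% and 5.42% were called lower. The orphan receptor Nr2f1 was higher in the pHes1_EPCs, 1.45-fold at P1 and 4.19-fold at P4. Nr2f2 (1.58-fold) and Rorb (1.11-fold) were higher there at P4 but not at P1, and these intervals were apart. Thrb, the thyroid hormone receptor needed for the medium-wavelength opsin, had an FPKM of 7.77 at P1 and 8.87 at P4 in the pHes1_ENCs, and 1.74 at P1 and 2.47 at P4 in the pHes1_EPCs, nearly level between the ages like Opn1sw and Gnat2 in the pHes1_ENCs. Its partner Rxrg, the retinoid X receptor of cones, had 7.14, 13.3, 0.994 and 3.03. Otx2, Crx and Neurod1, which act in rod and cone precursors alike, were 6.99-fold, 10.2-fold and 9.05-fold as high at P4 as at P1 in the pHes1_EPCs, against 1.64-fold, 2.78-fold and 1.87-fold in the pHes1_ENCs. Over the whole list 1 gene, Crx, was more than 2-fold higher at P4 in the pHes1_ENCs and 5 genes were in the pHes1_EPCs (Otx2, Crx, Neurod1, Prdm1 and Rxrg). Over all genes 2.77% and 4.17% were called higher, and over those that reached an FPKM of 1, 4.67% and 7.04%. With 1 of 11 genes, no excess over these shares can be read in the pHes1_ENCs.

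The 5 genes outside the lists whose pattern over the 4 libraries was nearest to the mean pattern of the 10 cone genes were Pnck, Ralgds, Fgf11, Mxd4 and BC031353, by the Euclidean distance between centred log2(FPKM + 1) values among 8356 genes that reached an FPKM of 10 in any library. Their distances ran from 0.0867 to 0.251. Pnck, a calcium/calmodulin-dependent protein kinase and the nearest, had an FPKM of 16.2 at P1 and 21.8 at P4 in the pHes1_ENCs, and 3.60 at P1 and 8.80 at P4 in the pHes1_EPCs. Ralgds, an exchange factor for Ral GTPases, had 50.6, 69.1, 12.1 and 29.2. With 4 libraries many genes can share such a pattern.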

How the data were processed

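RNA from pHes1_EPCs and pHes1_ENCs sorted at P1 and P4 was sequenced as single-end reads of 36 bases, with 1 library in each of the 4 groups. The authors aligned the reads to NCBI37/mm9 with TopHat2 2.0.8b, allowing 50 positions a read, and deposited FPKM values for each gene from Cufflinks 2.1.1 with a 95% interval. Read counts were not used here and the depth is known only through these intervals, which cover counting error only. Over all lines the FPKM summed to 342618 to 450080 a library, and 9.06% to 10.4% of lines had an FPKM outside their own interval.

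Values were used as deposited. Of 23021 lines, 787 with symbols of small RNAs were left out, and of several lines with 1 symbol the highest was kept (21828 genes). Differences are log2(FPKM + 1), pseudocount 1, called beyond 2-fold. Ratios use FPKM without a pseudocount, and their ranges combine the ends of both intervals. The 10 genes, the lists and the alternatives were chosen with earlier results of these data known. Named are the 10 genes, genes of the lists, overlapping genes and the 5 genes of nearest pattern. Of 7 amacrine and horizontal cell markers, 5 were measured, and of which Pax6 had an FPKM of 246, 28.3, 127 and 126, Slc6a9 of 19.1, 62.6, 1.72 and 10.1 and Gad1 of 16.2, 1.17, 0.566 and 0.203 (pHes1_ENCs at P1 and P4, then pHes1_EPCs at P1 and P4), with Calb1 and Lhx1 under 0.2 throughout. Ganglion cell markers summed to 22.4, 2.30, 16.8 and 2.31, and microglia markers to 1.87, 6.11, 8.22 and 8.12, in the same order. Some genes of the cascade are not reported here. Python 3.11.15, numpy 2.4.6, pandas 2.3.3 and matplotlib 3.10.9 were used. Of the calculations, only the call of genes more than 2-fold lower was tested on simulated data.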

Additional observations from a re-analysis of the deposited data

Results flagged for a closer look

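For 3 of the cone genes the difference between P4 and P1 had opposite signs in the 2 fractions, on the log2(FPKM + 1) scale. Gnat2 differed by -0.04 in the pHes1_ENCs and by 1.17 in the pHes1_EPCs, a gap of 1.21. Pde6c differed by -0.60 and 0.07, a gap of 0.67, and Cnga3 by -0.38 and 0.26, a gap of 0.64. Of these 6 differences, those of Gnat2 in the pHes1_ENCs and of Pde6c and Cnga3 in the pHes1_EPCs lie within overlapping intervals. Of the transcription factors, Nr2f1 differed by -1.32 in the pHes1_ENCs and 0.11 in the pHes1_EPCs (gap of 1.43), Nr2f2 by -1.07 and 0.17 (gap of 1.25) and Rorb by -0.20 and 0.50 (gap of 0.70). The difference between fractions changed sign from P1 to P4 for Nr2f2, from -0.68 to 0.57 (gap of 1.25), for Rorb, from -0.55 to 0.15 (gap of 0.70), for Guca1b, from 0.10 to -0.63 (gap of -0.73), and for Slc24a1, from 0.04 to -0.47 (gap of -0.51). For Nr2f2 and Rorb the gap between fractions and the gap between ages are the same quantity from the same 4 libraries. None of these gaps was tested, since each group has 1 library.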

How the results depend on the processing

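The direction of the median of the 10 cone genes was the same under every alternative run, and the sign of a single gene's difference changed in 1 of 65 values for P4 against P1 in the pHes1_EPCs (Pde6c) and in 0 of 67, 0 of 67 and 0 of 68 values in the other comparisons. With a pseudocount of 0.1 the count of genes lower in the pHes1_EPCs at P4 was 9, and the medians were -2.51 and -1.50 between fractions at P1 and P4 and 0.68 and 1.57 between ages in the pHes1_ENCs and pHes1_EPCs. Without a pseudocount they were 8 of 9 genes, -2.70, -1.54, 0.72 and 1.90. In the pHes1_ENCs 5 genes were then higher at P4, as were 8.66% of the 16223 genes above 0 at both ages. Where the higher library had to reach an FPKM of 1, the P1 median was -2.35. With FPKM rescaled to the same total, which lowers the weight of the pseudocount, the medians were -2.36 at P1 and -1.41 at P4, and 8 genes were lower at P4. The P4 count was 8 with quantile normalization and 8 by intervals that do not overlap, a rule by which 5 genes were higher at P4 in the pHes1_ENCs, where 25% and 22.6% of all genes with values above 0 passed it. Calls were also lost. In the pHes1_ENCs 2 genes were higher at P4 with the same total and 2 by quantiles, without Gnb3 (0.96 and 0.73), where 3.14% and 3.46% of all genes were. In the pHes1_EPCs 5 were by median of ratios and 5 by quantiles, without Cngb3 (0.95 and 0.90), where 2.81% and 2.72% of all genes were. With the same total the pHes1_EPC count was 6, without Opn1sw (0.94) and with Pde6h (1.18), where 3.29% of all genes were. Rescaling moved the median of the expressed genes for P4 between fractions from 0.15 to -0.13 (same total), -0.02 (median of ratios) and -0.03 (quantile), and for P4 against P1 in the pHes1_EPCs from 0.17 to -0.07, 0.03 and 0.02. Among all genes called between the fractions at P4, 35.5% were lower, against 53.4%, 46.9% and 50.2% under these scalings, and among those called between ages in the pHes1_EPCs 38.1%, against 63.0%, 55.9% and 55.7%. The genes called lower at P4 numbered 1184 of 21828 (5.42%), and 1963 (8.99%) with a pseudocount of 0.1, 2171 (9.95%) with the same total and 1552 (7.11%) by quantiles. Without a pseudocount they numbered 2491 of the 16025 genes above 0 in both fractions (15.5%). No paired analysis was possible because each group has 1 library and the labels carry no replicate numbers, and for the same reason no library could be left out.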
